A study of Mus musculus with 7 samples.

Results

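The mitochondrial ribosomal protein genes of the mouse were described by their ChIP-seq peaks in skeletal muscle. They were taken as the protein-coding genes whose symbols start with Mrpl or Mrps, except *Mrpl23*, and 77 genes met this rule among the 21951 protein-coding genes of the annotation. Genes of mitochondrial ribosomal proteins with other symbols were not members. The rule uses symbols and no peak values, and *Mrpl23* is described at the end. Of the 77 genes, 48 are Mrpl genes, named for the large ribosomal subunit, and 29 are Mrps genes, named for the small subunit. In the unified naming of ribosomal proteins, 44 of the products carry the name of a bacterial counterpart, and the other 33 are named as specific to mitochondria.

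Mitochondria translate the few proteins encoded by their own genome, which are core subunits of the respiratory chain and of ATP synthase, on ribosomes of their own. All proteins of these ribosomes are encoded in the nucleus, made in the cytosol and imported, so that their promoters are read by RNA polymerase II. Muscle needs much respiratory capacity, and the promoters of such nuclear genes are known for binding sites of NRF1 and of ETS factors, including GABPA (NRF2), together with YY1.

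The study mapped the clock activator BMAL1, the clock repressor REV-ERBα (product of *Nr1d1*) and RNA polymerase II (RNAP2) on chromatin of gastrocnemius, a hindlimb muscle. Wild-type male C57BL/6J mice, 5 months old and fed chow under a light:dark cycle, were used without any treatment for all libraries. BMAL1 and RNAP2 were mapped at Zeitgeber time (ZT) 4 and REV-ERBα at ZT 8, with 2 replicates each, and ZT counts hours from lights on. Peaks were called by the authors on each sample alone with input DNA as the control, so 6 peak lists were compared and no sample group differed in genotype or treatment. The factor and the time cannot be told apart for REV-ERBα, which was mapped at ZT 8 only. Whole muscle was used, and a peak cannot be assigned to a cell type within it.

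The lists hold between 28881 peaks (REV-ERBα, replicate 1) and 177669 peaks (BMAL1, replicate 2), at a lenient cutoff that most BMAL1 and REV-ERBα peaks passed without reaching a q-value of 0.05. The share of peaks with a q-value of 0.05 or less was 12.5% and 2.15% in the RNAP2 lists, 0.265% and 0.0203% in the BMAL1 lists and 1.12% and 1.41% in the REV-ERBα lists. Values are given as −log10 p or −log10 q of the authors' peak caller, on which a higher value is a stronger peak, and pairs of values are replicate 1 and replicate 2. A region is a merged stretch with a peak in each replicate, and its strength is the lower −log10 p of the pair. All 8 muscle marker genes examined had an RNAP2 region within 10 kb, for example *Ckm* at −log10 p of 84.5 and 31.6, and so had *Col1a1*, a collagen gene of fibroblasts, at 16.05 and 5.52. Other cells' markers *Alb* (liver), *Ptprc* (leukocytes), *Adipoq* (fat), *Pecam1* (endothelium) and *Pax7* (satellite cells) had no RNAP2 region.

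Promoters of the 77 genes were first read as sequence. A RefSeq promoter (GRCm38.p6, 250 bases before to 50 after the start) was found for 68 members and for 16453 other protein-coding genes, of which 6473 had an RNAP2 region. Stretches of 4 promoters, upstream of annotated exons, are shown, because they hold the motifs on which the members stood apart from other promoters or a clock factor's peak. Capitals mark ETS (CCGGAAG) and NRF1 (GCGCATGC) motifs on either strand, and each stretch is written along the gene's own strand.
*Mrps27*, chr13:99344706-99344785, plus strand: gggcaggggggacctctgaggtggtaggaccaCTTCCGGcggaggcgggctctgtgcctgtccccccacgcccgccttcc
*Mrpl22*, chr11:58171511-58171660, plus strand: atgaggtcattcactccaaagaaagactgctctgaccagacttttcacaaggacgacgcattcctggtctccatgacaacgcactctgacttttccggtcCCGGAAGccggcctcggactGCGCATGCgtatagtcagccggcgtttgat
*Mrpl43*, chr19:45006443-45006557, minus strand: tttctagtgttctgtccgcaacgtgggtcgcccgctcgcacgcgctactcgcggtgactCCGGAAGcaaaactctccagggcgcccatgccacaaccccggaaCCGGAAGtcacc
*Mrps18a*, chr17:46110836-46110985, plus strand: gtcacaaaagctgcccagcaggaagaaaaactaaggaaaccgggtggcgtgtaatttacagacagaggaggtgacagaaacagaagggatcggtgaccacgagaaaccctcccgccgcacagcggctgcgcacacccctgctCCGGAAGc

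The *Mrps27* stretch is the whole gap of 80 bases between the starts of *Mrps27* and *Ptcd2*, which are transcribed away from each other. The *Mrpl43* stretch likewise ends where the annotated exons of *Twnk*, the gene of the mitochondrial DNA helicase, begin. *Mrpl22* holds an ETS and an NRF1 motif, and *Mrpl43* holds an ETS motif at 2 places.

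The members' promoters held ETS, NRF1 and YY1 motifs more often than those of other genes. The ETS motif was found in 25 of 68 member promoters (36.8%), against 12.2% of all other promoters and 19.2% of those of other genes with an RNAP2 region. The YY1 motif (AAGATGGC) was found in 12 (17.6%), against 3.23% and 5.07%, and the NRF1 motif in 8 (11.8%), against 3.73% and 6.12%. At least 1 of the 3 motifs was present in 37 of 68 member promoters (54.4%), 17.6% of other promoters and 27.7% of those of other genes with an RNAP2 region. Read backwards, the 3 motifs were present in 5 of 68 member promoters and in 5.28% of the others. Reading backwards keeps a motif's base composition but not its CpG dinucleotides, so these shares are no baseline matched for CpG. Motif matches are descriptions of the sequence, a missing match says only that the letters are not in the window, and binding of these factors was not measured.

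Both subunits carried these motifs alike in number, with 23 of 42 Mrpl promoters and 14 of 26 Mrps promoters. They were present in 29 of the 51 promoters of members with an RNAP2 region and in 8 of the 17 of members without one. Median GC content was 58.2% in the members, 57.0% in other promoters and 61.7% in those of other genes with an RNAP2 region, and the median ratio of observed to expected CpG was 0.819, 0.595 and 0.790. The SP1 motif (GGGCGG) was present in 48.5% of member promoters, 48.0% of others and 66.0% of those of other genes with an RNAP2 region. The CCAAT box of NFY (39.7% against 38.7%) and CRE (TGACGTCA, 2.94% against 2.43%) were found at shares close to those of other promoters. The TATA box (TATAAA) was in 4 members (5.88%), against 12.9% of other promoters and 7.28% of those with an RNAP2 region, and the ZBTB33 motif (TCTCGCGA) in 1 (1.47%), against 1.56% and 2.73%.

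**Figure D1:**
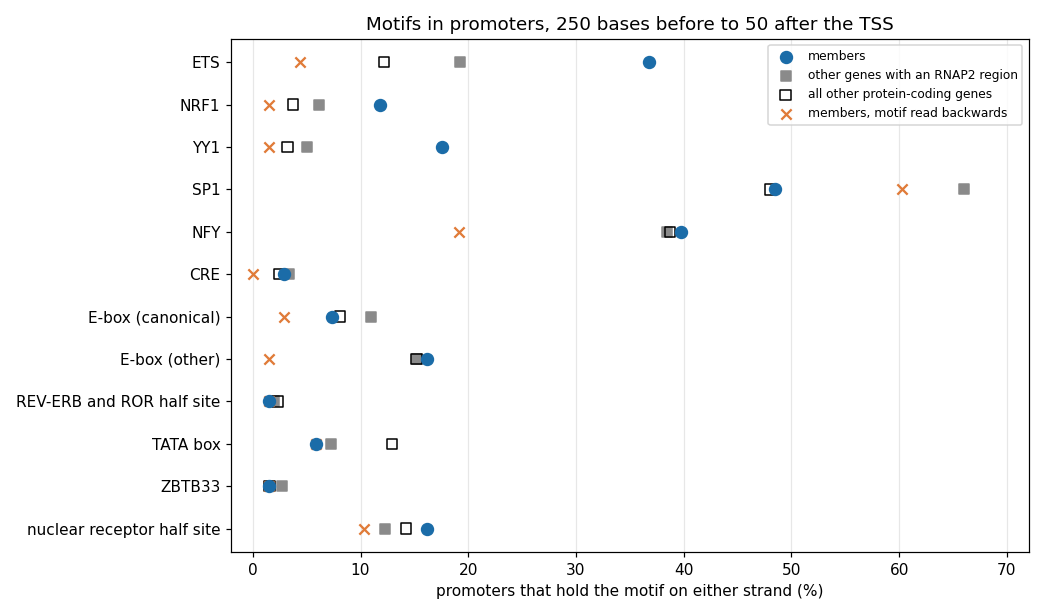
Share of promoters (x axis, %) that hold each of 12 motifs (y axis) on either strand, for 68 member promoters, other genes with an RNAP2 region and all other protein-coding genes, with crosses for members when the motif is read backwards. E-box (canonical) is CACGTG and E-box (other) is CAGCTG. The member points for ETS (36.8%), NRF1 (11.8%) and YY1 (17.6%) lie to the right of both comparison points.

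E-boxes, the REV-ERB and ROR site and its inner part were found at shares below or slightly above those of other promoters. The canonical E-box CACGTG, to which BMAL1 and CLOCK bind, was in 5 of 68 member promoters (7.35%), against 8.11% of others and 11% of those with an RNAP2 region. The E-box CAGCTG was in 11 (16.2%), against 15.2% of both. The REV-ERB and ROR site TAGGTCA was in 1 member, *Mrpl53* (1.47%), against 2.30% and 1.95%, and its inner part AGGTCA, which the longer site contains, in 11 (16.2%), against 14.2% and 12.3%.

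Most of these genes had an RNAP2 region nearby, though not always at their own promoter. An RNAP2 region lay within 10 kb of an annotated transcription start site (TSS) of 58 of the 77 members (75.3%), against 38.0% of the 21873 other protein-coding genes. Within 1 kb, the counts were 51 members (66.2%) and 30.4% of others. The Mrpl and Mrps genes gave like shares, 36 of 48 and 22 of 29. Within 10 kb, 27 of the 33 members named as specific to mitochondria had a region (81.8%) and 31 of the 44 named for a bacterial counterpart (70.5%). Within 1 kb, it was 26 (78.8%) and 25 (56.8%). Their strongest RNAP2 peaks within 10 kb had medians of 8.40 and 8.68 in replicate 1 and 5.51 and 3.80 in replicate 2. These differences were not tested.

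A peak in a single RNAP2 list says less. In replicate 1, 74 of 77 members had a peak within 10 kb, but so had 72.9% of other genes, and in replicate 2 it was 73 members and 83.8% of other genes. At a q-value of 0.05 or less the shares lay further apart, with 63 members in replicate 1 (81.8%, other genes 39.6%) and 33 in replicate 2 (42.9%, other genes 20%).

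The strongest RNAP2 peaks of the members had median −log10 p values of 8.46 (replicate 1) and 4.36 (replicate 2), where a gene with no peak entered as 0. For other protein-coding genes the medians were 3.70 and 2.60. Replicate 1 gave the higher value at 65 of 77 members, and the rank order of members was only partly shared between replicates (Spearman's rho 0.52 across 77 genes, a description, since genes are not independent). Once only genes with a region are compared, the members were close to the rest, at 9.46 and 5.45 for 58 members and 8.61 and 5.09 for 8311 other genes.

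Among gene lists of related function, the members stood in the middle. An RNAP2 region within 10 kb was found at 36 of 53 other genes of mitochondrial translation (67.9%), at 58 of 65 listed nuclear genes of respiratory complexes I to IV (89.2%) and at 76 of 81 cytosolic ribosomal protein genes (93.8%). The list of mitochondrial translation holds tRNA synthetases, elongation factors and also ribosomal proteins with other symbols, such as *Dap3* and *Ptcd3*. The medians of the strongest RNAP2 peak were 7.36 and 3.26, 10.4 and 5.52, and 14.9 and 8.03 for these lists. The order of the 4 lists was the same for the medians of the 2 replicates and for the shares within 1 kb. By peaks at a q-value of 0.05 or less, the members were slightly above complexes I to IV in replicate 1 (81.8% and 80%). In replicate 2 they were below (42.9% and 63.1%).

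**Figure D2:**
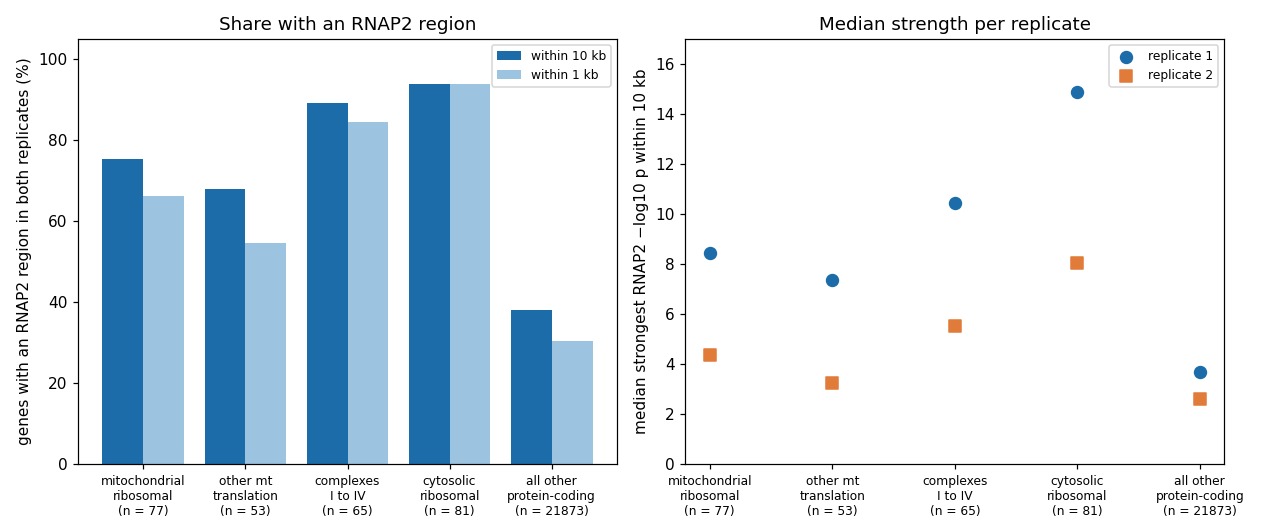
Left, the share of genes (y axis, %) with an RNAP2 region in both replicates within 10 kb and within 1 kb of a TSS, for 5 gene lists. Right, the median of the strongest RNAP2 −log10 p within 10 kb in each replicate, with no peak counted as 0. The mitochondrial ribosomal protein genes lie above all other protein-coding genes (75.3% against 38.0%) and below the cytosolic ribosomal protein genes (93.8%).

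Individual members ranged widely, from *Mrpl21*, the only member with no RNAP2 peak in either list, to *Mrps18b*, at −log10 p of 65.1 and 35.8. The *Mrps18b* value comes from a region of 3900 bp (chr17:35916123-35920022), whose top summit lies 31 bp from a TSS of *Ppp1r10*, a phosphatase regulator transcribed the other way, and 578 bp upstream of *Mrps18b*. The peak therefore cannot be assigned to *Mrps18b* alone. *Mrpl41* was next, at 20.5 and 24.3, with the summits 213 and 246 bp upstream of its TSS in a region of 1589 bp. *Mrps21* had 20.9 and 15.1 at 90 and 92 bp upstream, and *Mrpl28* 42.0 and 12.0 at 13 and 10 bp downstream. The summits of the replicates thus lay close together at these promoters. Their −log10 p values were far apart at *Mrps18b* and *Mrpl28* and nearer to each other at *Mrpl41* and *Mrps21*.

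The upstream stretch of *Mrpl41*, whose promoter region was the strongest with its summit nearest to the member, holds none of the ETS, NRF1, YY1 and E-box motifs.
*Mrpl41*, chr2:24975099-24975248, minus strand: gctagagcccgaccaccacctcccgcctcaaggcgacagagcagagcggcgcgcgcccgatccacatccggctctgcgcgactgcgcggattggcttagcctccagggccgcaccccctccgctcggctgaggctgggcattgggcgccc

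Several other leading members had their strongest region at a neighbour's promoter. The strongest region near *Mrps17* (23.4 and 12.9) lay 9470 bp downstream, 66 bp from a TSS of *Nipsnap2*, while the region at the *Mrps17* start had 8.29 and 2.86. The strongest region near *Mrpl49* (17.2 and 10.98) was at *Syvn1*, and its own promoter, shared with *Fau*, had 21.5 and 7.35. *Mrpl53* had 19.6 and 10.98 at *Mogs* and 14.2 and 7.49 at its own start, and *Mrpl20* 16.3 and 8.32 at *Ccnl2* and 5.07 and 5.42 at its own. *Mrpl36* (17.03 and 10.98) shares its first region with *Ndufs6*, a complex I subunit, and had a further region of 7.64 and 2.38 at another of its starts. The tenth place was a tie of *Mrps18a*, at 25.7 and 8.12 on its own promoter, and *Mrpl37*, at 14.9 and 8.12 on a promoter shared with *Cyb5rl*.

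When a region was credited only to the protein-coding gene with the nearest TSS, 43 of 77 members kept one, against 29.7% of other genes. Of the 58 members with a region, the top summit of the strongest one was nearest to the member's own TSS in 36 (62.1%), and in 72% of other genes with a region. It lay within 1 kb of a member's TSS in 44 (75.9%, others 72.2%), and the median distance was 99 bp (others 117 bp).

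**Figure D3:**
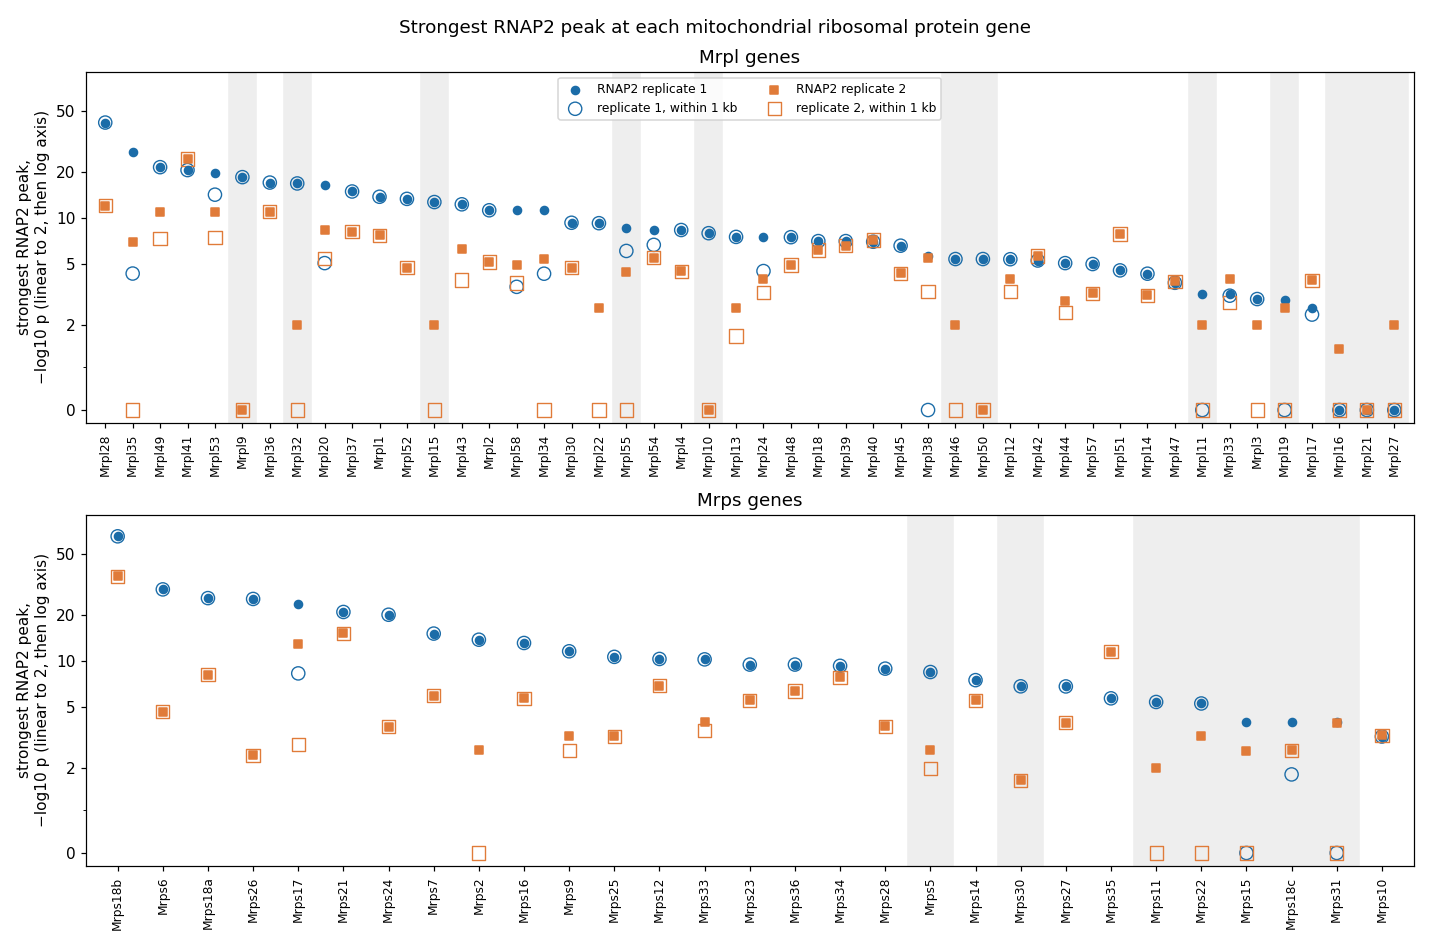
The strongest RNAP2 peak within 10 kb of each member (filled symbols) and within 1 kb (open symbols), as −log10 p in each replicate on an axis that is linear to 2 and logarithmic above, with 0 where no peak was listed. Grey bands mark the 19 members with no region in both replicates. Most circles (replicate 1) lie above the squares (replicate 2), and filled symbols without an open one around them, as at *Mrpl35* or *Mrps17*, mark peaks away from the promoter.

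By role in the ribosome, the proteins of the stalk that recruits elongation factors gave unlike values. *Mrpl12* had promoter peaks of 5.38 and 3.30, *Mrpl10* had 7.95 in replicate 1 and no peak in replicate 2, and *Mrpl11*, at the base of the stalk, had none within 1 kb. Of the proteins near the exit tunnel, *Mrpl45*, which holds the ribosome at the inner membrane, had a promoter region (6.59 and 4.36). *Mrpl22* had a promoter peak of 9.24 in replicate 1 only, and its region was at *Gemin5*, 3217 bp upstream. *Mrpl24* had promoter peaks of 4.50 and 3.26 that do not overlap.

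*Mrps12*, of the decoding centre, had 10.3 and 6.88 on a promoter shared with *Sars2*, which codes for the mitochondrial seryl-tRNA synthetase. *Mrpl58*, a peptidyl-tRNA hydrolase built into the ribosome, had 3.55 and 3.76 at its start and 3 more regions downstream. *Mrps18a*, *Mrps18b* and *Mrps18c* are paralogues, of which only the last is named for the bacterial counterpart. *Mrps18c* (3.97 and 2.60) had no region, whereas regions at or beside the other two were among the strongest. *Mrps36*, whose product is now assigned to the α-ketoglutarate dehydrogenase complex, had a promoter region of 9.46 and 6.35.

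The 19 members with no RNAP2 region were 12 Mrpl and 7 Mrps genes. In 13 of them each list had a peak within 10 kb but the peaks did not overlap, 3 had a peak in replicate 1 only, 2 in replicate 2 only and *Mrpl21* in neither. Of the 19, 12 had a replicate 1 peak within 1 kb and 3 a replicate 2 peak, and 11 had a replicate 1 peak at a q-value of 0.05 or less, whereas none did in replicate 2. *Mrpl9* was the clearest case, with 18.5 at 39 bp downstream of its TSS in replicate 1 and no peak within 10 kb in replicate 2. *Mrpl32* had 16.8 at its promoter in replicate 1 and nothing within 1 kb in replicate 2. Replicate 1 thus listed a promoter peak at most of these genes, and replicate 2 at few. Just beyond the limit, *Mrpl55*, *Mrps31* and *Mrps18c* had a region 10460, 12464 and 16802 bp from their TSS, each at another gene's promoter.

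Many members share a promoter. Another gene's TSS lay within 1 kb in 34 of 77 members (44.2%), against 14.5% of other protein-coding genes. Among genes with an RNAP2 region, it was 23 of 58 members (39.7%) and 24.2% of other genes. The trait was not particular to the members. Over all genes of each list, the share was 38.5% for complexes I to IV, 35.8% for other mitochondrial translation and 22.2% for cytosolic ribosomal proteins. The neighbour was on the opposite strand in 33 of the 34 members. Partners with functions in mitochondria were *Twnk* at *Mrpl43*, *Sars2* at *Mrps12*, *Ndufs6* at *Mrpl36*, *Ndufb5* at *Mrpl47* and *Ptcd2* at *Mrps27*. *Mrpl46* and *Mrps11* are 30 bp apart and share a promoter with each other. RNAP2 regions were not limited to shared promoters. Among members with no other TSS within 1 kb, 35 of 43 had a region within 10 kb (81.4%, others 33.7%) and 28 within 1 kb (65.1%, others 26.3%). Among those with another TSS, it was 23 of 34 (67.6%, others 63.2%).

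A BMAL1 region in both replicates lay within 10 kb of 3 of the 77 members (3.90%), close to the 4.22% of all other protein-coding genes. Among the 58 members with an RNAP2 region, 2 (3.45%) had one, against 6.52% of 8311 other genes with an RNAP2 region, and 1 further member had one without an RNAP2 region. No member had one within 1 kb, against 1.56% of other genes. Single lists gave 21 of 58 members in replicate 1 (36.2%, others 38.6%) and 56 of 58 in replicate 2 (96.6%, others 90.4%). A peak in either list within 1 kb was found at 18 of 58 members (31.0%, others 41.4%), and at no member in both. No BMAL1 peak within 10 kb of any of the 77 members reached a q-value of 0.05, against 0.457% and 0.349% of other genes with an RNAP2 region. The strongest BMAL1 peak at a member was 3.64 in replicate 1 (*Mrps9*) and 4.25 in replicate 2 (*Mrpl33*).

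The 3 BMAL1 regions were weak and away from promoters. At *Mrps30* (chr13:118392006-118392530, intergenic) the peaks had −log10 p of 3.32 and 3.26 and fold enrichments of 2.55 and 2.68, with summits 5035 and 4859 bp upstream. At *Mrpl35* (chr6:71832760-71833725) they had 3.11 and 2.94 at 6020 and 6426 bp upstream, in an intron of *Immt*, which organises mitochondrial cristae and whose TSS is nearer. At *Mrps9* (chr1:42880786-42881514) they had 2.48 and 2.40, inside the gene and 6652 and 6507 bp upstream of an internal start. All 6 peaks had a −log10 q of 0. RNAP2 had promoter peaks of 11.6 and 2.60 at *Mrps9*, a region only at the *Immt* start near *Mrpl35* (27.03 and 6.998), and no region at *Mrps30*, where the strongest peaks were 6.82 and 1.71. The 121 bases around the strongest summit at *Mrps30* and *Mrpl35*, the regions with the highest values, are shown because they hold neither E-box.
*Mrps30*, chr13:118392227-118392347, plus strand: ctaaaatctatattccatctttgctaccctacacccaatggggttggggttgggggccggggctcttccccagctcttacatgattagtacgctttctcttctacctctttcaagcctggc
*Mrpl35*, chr6:71832929-71833049, plus strand: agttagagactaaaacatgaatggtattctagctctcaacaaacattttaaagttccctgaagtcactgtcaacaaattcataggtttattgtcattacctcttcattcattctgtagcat
In 300 bases around the top summit, CACGTG was present in 3.14% of all 2742 BMAL1 regions and CAGCTG in 10.4%, and neither was present at the 3 members.

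REV-ERBα regions were also found at 3 of the 77 members (3.90%), close to the 3.68% of all other protein-coding genes. All 3 were among the 58 members with an RNAP2 region (5.17%), against 7.74% of other genes with one. Within 1 kb it was *Mrps27* alone (1.72%, others 4.50%). At the same distance, 2 of 36 other genes of mitochondrial translation with an RNAP2 region had one (5.56%), *Dap3* and *Ptcd3*. Both code for ribosomal proteins of the small subunit that the symbol rule does not take in. Single lists gave 18 of 58 members in replicate 1 (31.0%, others 39.9%) and 14 of 58 in replicate 2 (24.1%, others 42.7%). A peak in either list within 1 kb was present at 8 of 58 (13.8%, others 22.4%). Peaks at a q-value of 0.05 or less were found at 1 of 58 in each list, *Mrps27*, against 3.63% and 4.24% of other genes. A share of REV-ERBα regions below 7.74% was not particular to the members. Among genes with an RNAP2 region it was 5.56% for other mitochondrial translation, 1.72% for complexes I to IV and 3.95% for cytosolic ribosomal proteins, within 10 kb.

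The windows of the 2 gene sets differ, which bears on all of these counts. The members have a median of 4 annotated TSSs, as have those with an RNAP2 region, against 5 for other genes with one, and their windows cover 20740 bp against 27908 bp. Per 100 kb of window, the 58 members had 1.35 REV-ERBα peaks in each list, against 1.60 and 1.77 in other genes with an RNAP2 region. For BMAL1 the densities were 1.82 and 9.79, against 1.64 and 9.08, so that the members' densities were above those of other genes for BMAL1 and below them for REV-ERBα.

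*Mrps27*, which codes for a pentatricopeptide repeat protein of the small subunit, was the exception among the members. Its REV-ERBα peaks had −log10 p of 13.4 and 20.2, −log10 q of 8.56 and 15.1 and fold enrichments of 4.95 and 6.64. The region (chr13:99344255-99345018) covers the gap to *Ptcd2*, which codes for another mitochondrial pentatricopeptide repeat protein, and the summits lie 35 and 30 bp upstream of *Mrps27*. The nearest start of *Ptcd2* is 51 bp from the top summit, so the region cannot be assigned to either gene. In the 80-base stretch shown above, counted from its first base, the summits fall on bases 46 and 51 and the ETS motif on bases 33 to 39. No copy of TAGGTCA lies within the 300 bases around the summit, where 2.93% of all 1263 REV-ERBα regions hold one. The ETS and YY1 motifs do lie there, and 3.72% and 3.09% of all REV-ERBα regions hold them. RNAP2 at ZT 4 had 6.81 and 3.94 there, and BMAL1 no peak in replicate 1 and 1.87 at 771 bp downstream in replicate 2.

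The other REV-ERBα regions were weaker. At *Mrpl44*, whose product has an RNase III-like fold, the region (chr1:79780818-79781659, across the gene's end at 79781445) had −log10 p of 4.15 and 3.75. Its summits lay 5365 and 4985 bp downstream of the TSS, in replicate 1 just past the gene's end and in replicate 2 inside the gene. A TSS of *Wdfy1*, on the opposite strand, was slightly nearer to the top summit, at 5338 bp. A BMAL1 peak of 1.87 in replicate 2 overlapped the region. With peaks in 3 of the 4 lists of the clock factors it was the only shared site near a member, which is 1 of 58 members (1.72%) against 2.60% of other genes with an RNAP2 region. At *Mrpl43* the peaks had 1.58 and 2.53, and the top summit lay 10062 bp upstream, in the first exon of *Lzts2* at 7 bp from its TSS, so that only the edge of the region fell inside the 10 kb. RNAP2 had 12.3 and 3.94 at the *Mrpl43* promoter.

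Peaks of REV-ERBα in 1 list only were found within 1 kb of 11 further members, with −log10 p between 1.55 and 6.61. The highest was the 6.61 of replicate 1 (fold enrichment 3.30, −log10 q 2.16) between *Mrpl46* and *Mrps11*, and replicate 2 listed no peak within 10 kb of either gene. Neither gene had an RNAP2 region, and the RNAP2 peak at the promoter of each was 5.39 in replicate 1 only. The next were *Mrpl33* (3.68, replicate 2) and *Mrps18b* (3.18, replicate 2, at 25 bp from another gene's start). None of these 11 members can be told from a gene with no site by the rule that both replicates list a peak.

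**Figure D4:**
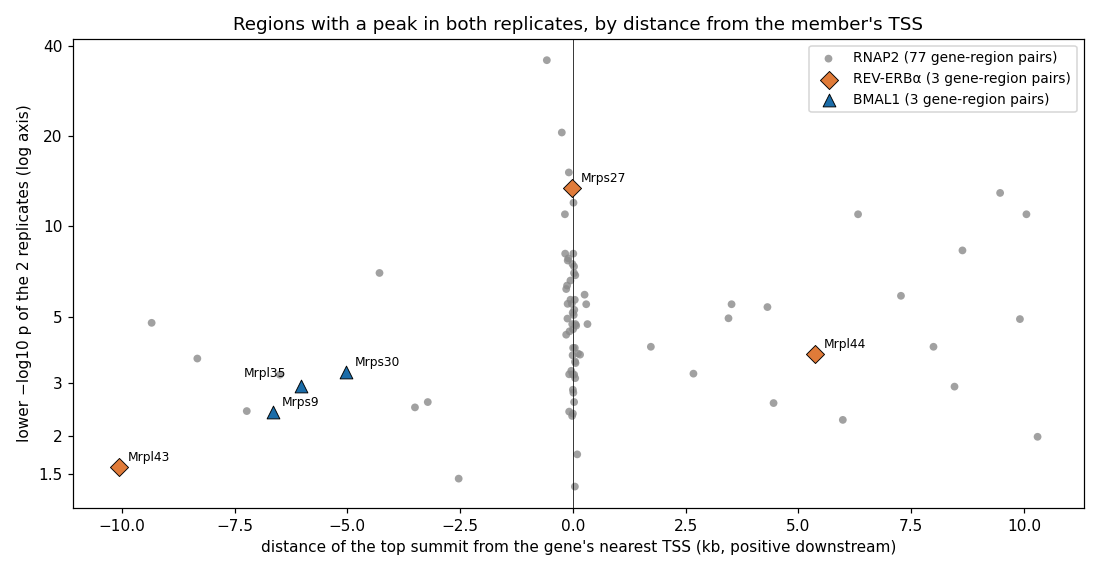
Each region with a peak in both replicates, by the distance of its top summit from the nearest TSS of the member (x axis, kb, positive downstream) and the lower −log10 p of the replicates (y axis, logarithmic). RNAP2 regions (77 pairs of gene and region) gather at the TSS, *Mrps27* is the only member with a REV-ERBα region there (13.4), and the 3 BMAL1 regions lie between 5035 and 6652 bp upstream.

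**Figure D5:**
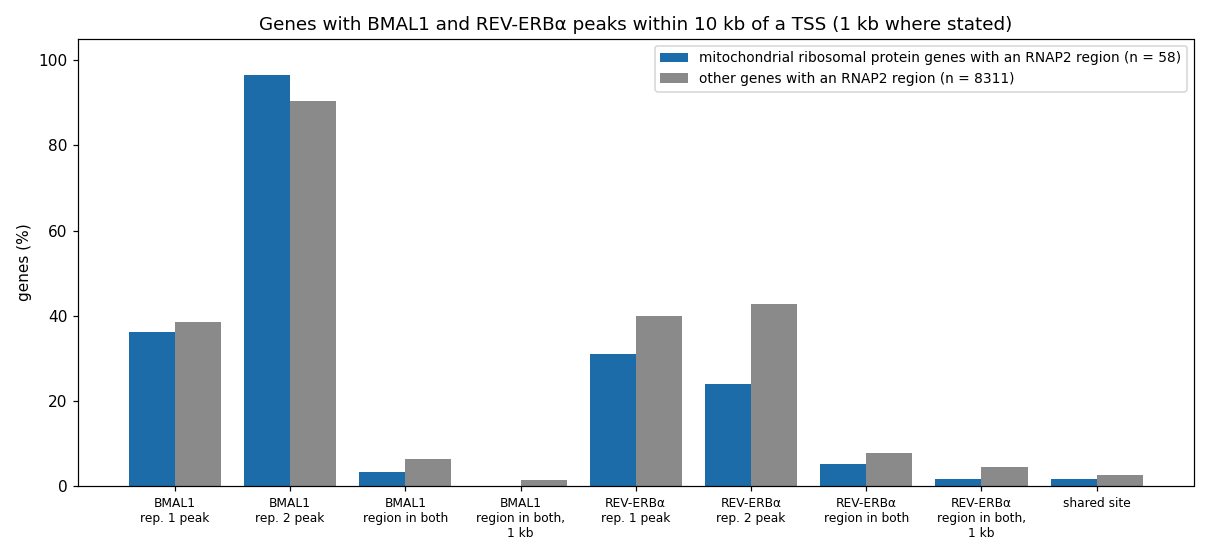
Share of genes (y axis, %) with BMAL1 and REV-ERBα peaks in each list, in both lists and at shared sites, for 58 members and 8311 other genes that have an RNAP2 region. Shares of REV-ERBα are below those of the other genes in every column (31.0% against 39.9% in replicate 1), and BMAL1 replicate 2 is above (96.6% against 90.4%).

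Further clock factor sites lay just outside the limit or at the gene that the rule leaves out. A site 10390 bp upstream of *Mrps21*, at the promoter of the clock repressor gene *Ciart*, had BMAL1 at 24.05 and 21.7 and REV-ERBα at 9.55 and 15.9. A REV-ERBα region at *Syvn1* (6.94 and 4.35) began 10024 bp from *Mrpl49*, and a BMAL1 region at *Hdgf* (6.02 and 1.83) lay 12415 bp from *Mrpl24*. *Mrpl23* itself had a REV-ERBα region of 24.7 and 37.2, with summits 14924 and 14804 bp downstream of its TSS in a region of 11838 bp that reaches into its window. A BMAL1 region of 8.95 and 18.4 overlapped it, and so did an RNAP2 region of 51.8 and 19.4 that was 16436 bp wide. At its promoter *Mrpl23* had an RNAP2 peak of 3.21 in replicate 1 and none in replicate 2.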

How the data were processed

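ChIP-seq peaks were taken as deposited, as 1 list for each of 6 samples. Per the labels and the study's methods, the authors aligned reads to mm10 (GRCm38) with BWA, discarded multi-mapping reads and duplicates, brought libraries down in size and called peaks with input DNA as control (MACS2 2.1.1, p up to 0.05). The deposited −log10 p and −log10 q values and the fold enrichment (a ratio of signal to local background) belong to each summit, and the deposited score was not used. Reads per peak are unknown, so no counting interval can be given.

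Replicate peaks that shared 1 bp or more were joined, and a region needed a peak in each replicate. Genes and TSSs came from GENCODE M21 (all transcripts), a peak counted within 10 kb of any TSS, and a shared site needed 3 of 4 lists. Members and lists were chosen with earlier results of these data known. Genes were named by rule: the 10 strongest RNAP2 regions (with a tie), every member with a BMAL1 or REV-ERBα region, members without RNAP2 peaks and *Mrpl23*. Further members were named by role or extreme value after their values were seen. No test was made, since lists of 2 replicates allow none over samples. Motifs were searched as exact letters on both strands of RefSeq promoters. Code was tested on simulated lists with planted regions and used scipy 1.17.1, numpy 2.4.6 and matplotlib 3.10.9 under Python 3.11.15. Alternatives were other distances, TSS rules, thresholds, overlaps, list sizes and single replicates, with autosomal comparison genes added after seeing the data. One marker gene is not reported here.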

Additional observations from a re-analysis of the deposited data

How the results depend on the processing

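Counts of RNAP2 regions at members stayed within 1.5 times of 58 under all alternatives but 1, and were above the share of other genes in each. They were 33 (other genes 18.6%) at −log10 q of at least 1.3, the exception. With 1 replicate left out, so that 1 list stands alone, they were 73 and 74, and with autosomal genes as the comparison the others' share was 39.6%. For the clock factors, shares in parentheses are those of other genes with an RNAP2 region. REV-ERBα regions, 3 in all (7.74%), were found at 5 members within 20 kb (9.87%). Only 1 member, *Mrps27*, was left within 1 kb (4.50%), under the nearest-gene rule (5.19%) and at −log10 q of at least 1.3 (2.91%). Single lists gave 22 members in replicate 1 (18 with an RNAP2 region, others 39.9%) and 17 in replicate 2 (14 with an RNAP2 region, others 42.7%). BMAL1 regions, also 3 (2 with an RNAP2 region, others 6.52%), were found at 7 members within 20 kb (5 with an RNAP2 region, others 9.93%). They were found at 0 within 1 kb (1.56%) and at −log10 q of at least 1.3 (0.253%). Only *Mrps30*, which has no RNAP2 region, was left within 5 kb, at −log10 p of at least 3 and with reciprocal overlap. Among members with an RNAP2 region the count was thus 0 in these settings, against 4.25%, 0.650% and 2.37% of other genes. Single lists gave 28 members in replicate 1 (21 with an RNAP2 region, others 38.6%) and 69 in replicate 2 (56 with an RNAP2 region, others 90.4%). Shared sites, 1 in all (2.60%), numbered 4 within 20 kb (3 with an RNAP2 region, others 3.42%) and 2 with *Mrpl23* counted (2.60%). They numbered 0 within 1 kb (1.20%), under the nearest-gene rule (1.80%) and at both stricter thresholds (0.951% and 0.349%). The count was also 0 with reciprocal overlap (1.34%) and equal list sizes (1.86%). With a list left out, it was 1 without BMAL1 replicate 1 (1.71%) and 0 without any other (1.24% to 1.54%). The median strongest RNAP2 value of replicate 1 was 5.09 as fold enrichment (others 3.04). The 3 promoter motifs together fell from 37 members to 5 read backwards. The causes of these changes were not tested. No paired analysis was possible because no result comes from a test. Counts of 1 to 3 members cannot show a difference from other genes, and absence of a region is not absence of binding at this depth.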
